A study of Mus musculus with 15 samples.

Results

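The genes described here are those that carry dietary fat through the enterocyte: uptake and binding of fatty acids, their activation, triglyceride synthesis, chylomicron assembly, lipid droplet coats and lipolysis. They were taken from a list of 34 gene symbols set by these roles, with earlier results of these data known. Of the 34 genes, 31 were measured among 18820 genes in all, and 30 of the 31 had a mean above background, the exception being Cd36, a fatty acid receptor whose log2 level averaged between 2.76 and 2.81 in every group. Agpat1 and Acsl3 had only probe sets that carry several genes, and Acsl1 was not found in the probe annotation used, so these 3 have no value here.

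Expression was measured in confluent 2D monolayers grown from duodenal organoids (enteroids) of female C57BL/6J mice aged 9 weeks. Monolayers received the undigested soluble fraction of casein (CAS), soybean meal (SBM), spray dried plasma protein (SDPP) or yellow meal worm (YMW), each labelled as 4% (w/v), and a medium control (MC) received DMEM alone. By the study's methods the extracts were diluted before use, so the protein concentration on the cells was well below what that label states. RNA was taken after 6 h, with 3 wells pooled as 1 sample and 3 samples in each of the 5 groups, and each of the 15 samples was hybridized to 1 Affymetrix mouse gene 1.1 ST array. All monolayers lack the lymph vessels and bile that the duodenum has. The sources bring fat of their own in unequal amounts, high in YMW by the study's account, and the fat that reached the cells was not measured on these arrays. Replicates are biological by their labels, which tie none to a mouse. By the study's account the organoids came from 3 mice and were cultured separately, so arrays of different groups can come from the same mouse. All values below are log2 intensities, and levels of different genes cannot be compared because each has its own probes.

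In the duodenum, fatty acids and monoacylglycerol released from dietary fat enter the absorptive enterocyte, where they are bound by fatty acid binding proteins, joined to coenzyme A and rebuilt into triglyceride on the endoplasmic reticulum. Microsomal triglyceride transfer protein loads triglyceride onto apolipoprotein B to form the chylomicron, which leaves the endoplasmic reticulum in a COPII vesicle and is secreted towards the lymph. Surplus triglyceride is kept in cytosolic droplets coated by perilipins and is released again by lipases, and the whole apparatus is largely a property of the mature villus enterocyte.

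The samples were enterocyte-bearing by their markers, but the MC arrays were not alike. The mean log2 level of 21 enterocyte markers lay between 7.15 and 8.52 in the 12 treated arrays, against 7.31, 8.96 and 9.03 in MC replicates 1, 2 and 3, and 19 of the 21 were above background. Crypt base stem cell markers ran the other way, with 8.74 to 9.15 in the treated arrays and 9.03, 8.25 and 7.72 in MC, and so did 4 cycling markers, with 8.73 to 9.12 in the treated arrays and 9.15, 8.17 and 7.67 in MC. Paneth cell markers ran the same way as the stem cell markers, with 10.34 to 10.62 in the treated arrays and 10.58, 10.03 and 9.99 in MC. For these 4 lists MC replicate 1 lay within or next to the range of the treated arrays while MC replicates 2 and 3 lay outside it. Goblet markers were 10.01 to 10.18 in the treated arrays and 10.16, 10.11 and 10.25 in MC, and the enteroendocrine and tuft lists in MC lay within the treated range. None of 4 adipocyte markers was above background, and 2 of 4 hepatocyte, 3 of 4 stromal and 2 of 3 leukocyte markers were. The hepatocyte list averaged 4.35 to 4.60 in the treated arrays and 4.29, 4.29 and 4.16 in MC, so all 3 MC arrays lay below the treated range. In a whole monolayer, fewer cells of a type and less RNA per cell cannot be told apart.

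Against the 3 MC arrays together, members of the pathway were called lower with every source and higher with none, and the count was smallest with SDPP. A gene was called at the threshold of the study, an unadjusted p under 0.05 in limma with a fold change of at least 1.5. By this measure 9 of 31 members were lower with CAS, where 2.04% of all genes were, and 13 of 31 with SBM, where 2.14% of all genes were. With YMW 6 of 31 were lower (2.13% of all genes), and with SDPP 1 of 31 was lower (0.499% of all genes). The share of all genes called higher was 1.82% with CAS, 1.37% with SBM, 1.74% with YMW and 1.13% with SDPP. The median log2 difference of the members from MC was -0.65 with CAS, -0.60 with SBM, -0.46 with YMW and -0.31 with SDPP, and that of all genes lay between -0.01 and 0.02. The 4 comparisons share the same MC arrays. After Benjamini-Hochberg adjustment over all genes no member lower than MC passed 0.05, and the lowest adjusted p among them was 0.0770, for Angptl4 with CAS. By an unadjusted p under 0.05 alone, 16 members were lower with CAS, 19 with SBM, 11 with YMW and 3 with SDPP, and 16.5%, 18.2%, 19% and 12% of all genes passed it in either direction.

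**Figure D1:**
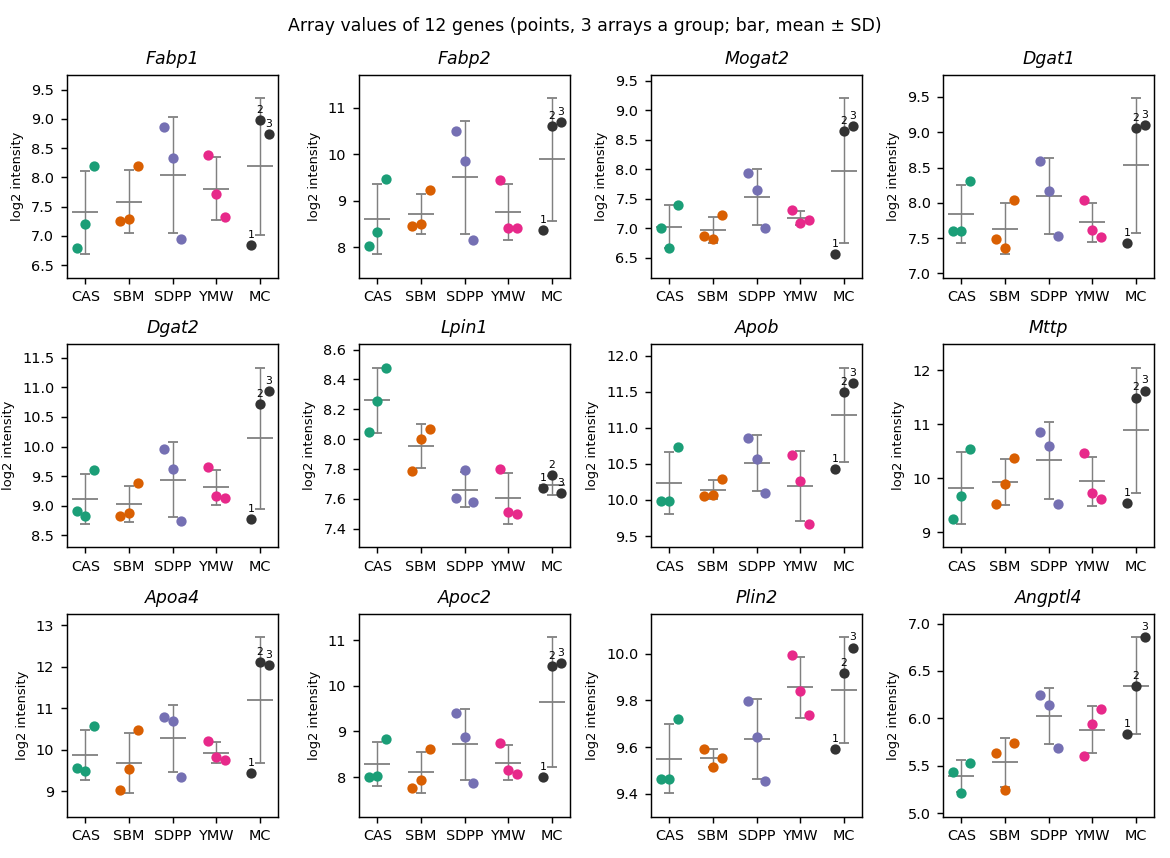
Log2 intensity of 12 members in each of the 15 arrays, by group, with points for arrays, bars for the mean and SD of 3 arrays, and MC arrays marked by replicate number. For Dgat2, Apob and Mttp the MC replicates 2 and 3 stand above every treated array and MC replicate 1 among them, whereas for Lpin1 the CAS arrays average 8.26 and the MC arrays 7.69.

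Among the 4 genes of uptake and binding, only the fatty acid transport protein passed the threshold. Slc27a4, an acyl-CoA synthetase that drives fatty acid uptake, measured 7.06, 7.16 and 7.65 in CAS, 7.19, 7.04 and 7.40 in SBM, 8.08, 7.58 and 6.99 in SDPP, 7.26, 7.07 and 6.99 in YMW and 6.96, 8.30 and 8.58 in MC. The MC group spanned the treated arrays, with its replicate 1 below all of them and its replicates 2 and 3 above all of them. Its difference from MC was -0.84 (SE 0.34) with YMW, -0.74 with SBM, -0.65 with CAS and -0.39 with SDPP, of which YMW and SBM were called. The cytosolic binding proteins Fabp1 (liver type) and Fabp2 (intestinal type) differed from MC by -0.79 and -1.29 with CAS and were called in no comparison, with SDs within a group of up to 1.32. The 2 measured acyl-CoA synthetases, Acsl4 and Acsl5, which activate fatty acids, lay between -0.56 and -0.07 from MC, and neither was called.

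Triglyceride synthesis showed its lower values at both entries to the pathway. Mogat2, the monoacylglycerol acyltransferase of fat absorption, measured 7.01, 6.67 and 7.40 in CAS, 6.86, 6.82 and 7.23 in SBM, 7.93, 7.64 and 7.00 in SDPP, 7.30, 7.09 and 7.13 in YMW and 6.56, 8.65 and 8.72 in MC. MC replicates 2 and 3 were above every treated array and MC replicate 1 below every one. Its difference from MC was -0.95 with CAS and -1.01 with SBM (SE 0.43), both called, against -0.80 with YMW and -0.45 with SDPP, which were not. Dgat2, one of the enzymes that complete triglyceride, measured 8.92, 8.83 and 9.60 in CAS, 8.83, 8.87 and 9.38 in SBM, 9.96, 9.63 and 8.75 in SDPP, 9.65, 9.16 and 9.13 in YMW and 8.77, 10.72 and 10.94 in MC. Here too MC replicates 2 and 3 were above every treated array, and MC replicate 1 lay within their range. The SD of Dgat2 was 0.41 over the 12 treated arrays and 1.19 over the 3 MC arrays. Dgat2 differed from MC by -1.02 with CAS and -1.11 with SBM (SE 0.45), both called, and by -0.83 with YMW and -0.70 with SDPP. Dgat1, which catalyses the same last step, measured 7.60, 7.59 and 8.31 in CAS, 7.49, 7.36 and 8.05 in SBM, 8.59, 8.17 and 7.52 in SDPP, 8.04, 7.62 and 7.52 in YMW and 7.43, 9.06 and 9.11 in MC. The order of the arrays was close to that of Dgat2, and only SBM was called, at -0.90 (SE 0.39).

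The glycerol phosphate branch gave Agpat2 and Gpat3. Agpat2, which acylates lysophosphatidic acid, measured 9.20, 9.30 and 9.85 in CAS, 9.33, 9.05 and 9.51 in SBM, 10.29, 9.81 and 9.25 in SDPP, 9.65, 9.19 and 9.03 in YMW and 9.30, 10.69 and 10.93 in MC. The lowest MC array lay inside the treated range and the other 2 were above it. Agpat2 was called lower with CAS (-0.86), SBM (-1.01) and YMW (-1.02, SE 0.36), and SDPP differed by -0.52. Gpat3, the microsomal glycerol phosphate acyltransferase that opens the branch, measured 5.60, 5.41 and 6.17 in CAS, 5.66, 5.79 and 6.06 in SBM, 6.62, 6.10 and 5.84 in SDPP, 6.32, 5.77 and 5.70 in YMW and 5.81, 7.23 and 7.25 in MC. MC replicate 1 again sat among the treated arrays and the other 2 above all of them. Gpat3 was called lower with CAS (-1.04), SBM (-0.93) and YMW (-0.83, SE 0.33), and SDPP differed by -0.58. The remaining acyltransferases lay closer to MC, and none of them was called. The mitochondrial Gpam lay between -0.21 and 0.18, Gpat4 between -0.12 and -0.01, and Agpat3 between -0.25 and -0.18. Agpat3 nevertheless had an unadjusted limma p under 0.05 with every source, the lowest with SDPP (adjusted p = 0.342). Its SBM, SDPP and YMW arrays were below all MC arrays. With SBM 8.96% and with YMW 7.12% of all genes showed this, and the SDPP share is not given. In all, 4 of 11 synthesis genes were lower with CAS, 5 with SBM, 2 with YMW and 0 with SDPP.

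Phosphatidate phosphatases, which make diacylglycerol, held the only member with an adjusted p under 0.05 for a source against MC. Lpin1 measured 8.05, 8.25 and 8.48 in CAS, 7.79, 8.00 and 8.07 in SBM, 7.61, 7.80 and 7.58 in SDPP, 7.80, 7.51 and 7.50 in YMW and 7.67, 7.76 and 7.64 in MC. Each CAS array was above each MC array, as in 5.65% of all genes. Each SBM array was too, for which the share of all genes is not given, and SDPP and YMW overlapped MC. Lpin1 averaged 8.26 ± 0.22 in CAS and 7.69 ± 0.06 in MC (SD, n = 3 each), a difference of 0.57 (SE 0.12) or 1.48-fold, with an adjusted p of 0.0491 in limma, where 0.654% of all genes had one under 0.05 with CAS. The fold change is just under the 1.5-fold threshold. Over 24 alternative settings it kept its sign, between 0.46 and 0.68, while the adjusted p ran between 0.00157 and 0.477, the highest in a fit of the CAS and MC arrays alone. Lpin2 and Lpin3 lay between -0.45 and -0.21 from MC and were not called.

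Chylomicron assembly had the largest median differences by role, -1.32 with CAS, -1.52 with SBM, -1.27 with YMW and -0.67 with SDPP over 7 genes. Apob, the structural protein of the chylomicron, measured 9.98, 9.98 and 10.73 in CAS, 10.06, 10.08 and 10.29 in SBM, 10.86, 10.57 and 10.09 in SDPP, 10.63, 10.27 and 9.67 in YMW and 10.43, 11.49 and 11.62 in MC. Every SBM array was below every MC array, as in 8.96% of all genes, and in the other sources some arrays reached above MC replicate 1. It was the 1 member called in all 4 comparisons, 1.93-fold lower with CAS, 2.05-fold with SBM, 1.59-fold with SDPP and 1.99-fold with YMW. Its adjusted p lay between 0.135 and 0.413. The call with SDPP was the only SDPP call among the members, and it was lost with the replicate block, with 1 prior variance, with genes above background only, with all probe sets tested, in a fit of the SDPP and MC arrays alone and without SDPP replicate 2 or 3 or MC replicate 2 or 3, among other arrays. With MC replicate 1 as the only control Apob with SDPP differed by 0.08. Mttp, which loads lipid onto Apob, measured 9.25, 9.68 and 10.55 in CAS, 9.53, 9.89 and 10.37 in SBM, 10.86, 10.60 and 9.53 in SDPP, 10.47, 9.74 and 9.63 in YMW and 9.55, 11.49 and 11.62 in MC. The treated arrays spread over more than a log2 unit, with CAS replicate 1 the lowest and SDPP replicate 1 the highest of them. Its differences of -1.06, -0.96, -0.56 and -0.94 with CAS, SBM, SDPP and YMW (SE 0.50) were not called.

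Among the small apolipoproteins, Apoa4, a secreted chylomicron protein made by enterocytes, measured 9.56, 9.49 and 10.56 in CAS, 9.03, 9.54 and 10.47 in SBM, 10.80, 10.69 and 9.35 in SDPP, 10.21, 9.81 and 9.76 in YMW and 9.44, 12.11 and 12.04 in MC. MC replicates 2 and 3 were above all treated arrays and MC replicate 1 below most of them. It was called lower with CAS (-1.33) and SBM (-1.52, SE 0.61). Apoc2, the activator of lipoprotein lipase, measured 8.00, 8.03 and 8.84 in CAS, 7.76, 7.93 and 8.62 in SBM, 9.41, 8.88 and 7.87 in SDPP, 8.75, 8.15 and 8.06 in YMW and 8.00, 10.43 and 10.50 in MC. Its arrays fell in a similar order, and it was called lower with CAS (-1.35), SBM (-1.54) and YMW (-1.32, SE 0.55). Apoa1 and Apoc3, neighbours of Apoa4 in the genome, were called lower with SBM alone among the sources, by 4.02-fold and 3.07-fold, while SBM did not differ from the mean of the other sources at an unadjusted p under 0.05 for either. Sar1b, the GTPase of the vesicle that exports chylomicrons, lay between -0.52 and -0.31 with no call.

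Droplet and lipolysis genes were less uniform. The droplet coat Plin3 measured 9.30, 9.31 and 9.62 in CAS, 9.26, 9.33 and 9.72 in SBM, 9.80, 9.69 and 9.30 in SDPP, 9.54, 9.35 and 9.46 in YMW and 9.29, 10.38 and 10.57 in MC. MC replicates 2 and 3 were above all treated arrays, and Plin3 was called lower with CAS (-0.67), SBM (-0.65) and YMW (-0.63, SE 0.25). Plin2, the main droplet coat of most cells outside fat tissue, measured 9.46, 9.46 and 9.72 in CAS, 9.59, 9.51 and 9.55 in SBM, 9.80, 9.64 and 9.46 in SDPP, 10.00, 9.84 and 9.74 in YMW and 9.59, 9.92 and 10.03 in MC. YMW overlapped MC throughout, and before rounding each SBM array was below each MC array, as in 8.96% of all genes. No comparison with MC was called, at -0.30, -0.29, -0.21 and 0.01 with CAS, SBM, SDPP and YMW.

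Angptl4, a secreted inhibitor of lipoprotein lipase, measured 5.43, 5.21 and 5.53 in CAS, 5.63, 5.25 and 5.74 in SBM, 6.25, 6.14 and 5.68 in SDPP, 5.61, 5.94 and 6.10 in YMW and 5.84, 6.34 and 6.86 in MC. All CAS and all SBM arrays were below all MC arrays, which 7.59% and 8.96% of all genes also showed, and the SDPP and YMW arrays overlapped MC. It was 1.94-fold lower with CAS and 1.75-fold lower with SBM, both called, with adjusted p-values of 0.0770 and 0.163. The lipases Pnpla2, Lipe and Mgll, which remove fatty acids from triglyceride in turn, were not called in any comparison. Abhd5, the coactivator of Pnpla2, was below all MC arrays in every CAS, SBM and YMW array (7.12% of all genes with YMW), with 6.78 ± 0.02 in YMW and 7.24 ± 0.21 in MC (SD, n = 3 each), a difference of -0.46 with an adjusted p of 0.0957 that did not reach 1.5-fold.

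The call against MC rested on which control arrays were used. Both MC replicates 2 and 3 were above all 12 treated arrays for 21 of the 31 members, as they were for 11.4% of all genes, and MC replicate 1 was within the treated range for 29 members and below it for Mogat2 and Slc27a4. With MC replicate 1 as the only control, no member was called lower with CAS, SBM, SDPP or YMW (0.404%, 0.335%, 0.282% and 0.197% of all genes). In that fit the lone control is assumed to vary like the other groups. Then 1 member was higher with CAS, Lpin1 at 0.59 (adjusted p = 0.439, 0.43% of all genes), and 1 with SDPP, Mogat2 at 0.97 (adjusted p = 0.801, 0.462% of all genes), but none with SBM (0.276%) or YMW (0.298%). Of the 27, 27, 27 and 28 members below MC with CAS, SBM, SDPP and YMW, 15, 15, 20 and 18 then lay above it. The medians of the members became 0.02, 0.07, 0.19 and 0.04 for CAS, SBM, SDPP and YMW. When MC replicate 2 was left out, CAS had 3 members lower (0.808% of all genes), SBM 2 (0.696%), YMW 1 (0.755%) and SDPP 0 (0.191%). Without MC replicate 3 the count was 3 for CAS (0.553%), 1 for SBM (0.393%), 1 for YMW (0.584%) and 0 for SDPP (0.143%). Without MC replicate 1, in contrast, 19 members were lower with CAS (4.48% of all genes), while SBM had 18 (4.9%), YMW 19 (4.6%) and SDPP 13 (3.44%). Array weights, which lower the weight of arrays that deviate from their group, gave 19 members lower with CAS (3.97% of all genes), 17 with SBM (4.3%), 17 with YMW (3.99%) and 12 with SDPP (2.58%). The enterocyte markers moved in the same arrays, 6, 9, 1 and 10 of 21 being called lower with CAS, SBM, SDPP and YMW against all 3 MC arrays.

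**Figure D2:**
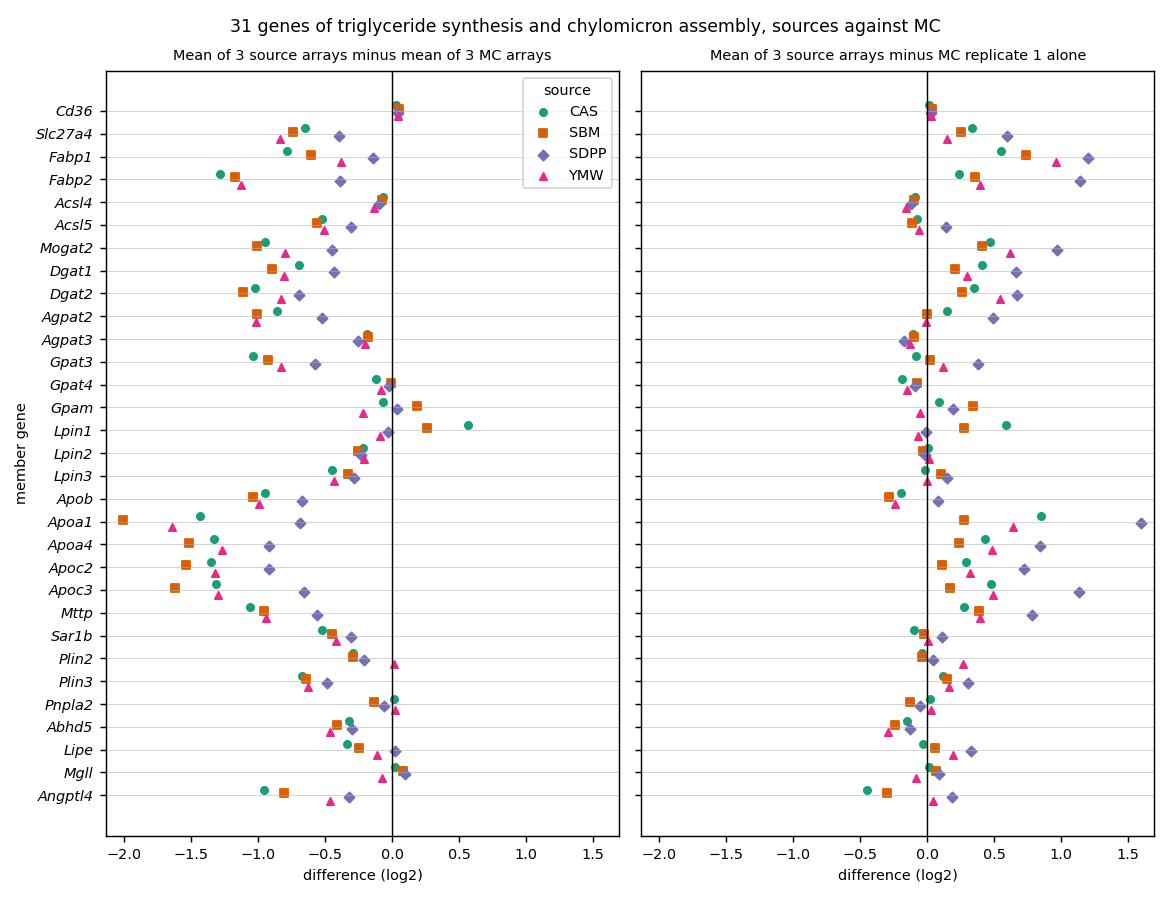
Log2 difference from MC of the 31 measured members for each source, on the left against the mean of the 3 MC arrays and on the right against MC replicate 1 alone. On the left most members are below 0 with medians of -0.65 to -0.31, and on the right the medians are between 0.02 and 0.19.

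Differences between the sources were computed with the MC arrays entering only the estimate of the spread. Each source was set against the mean of the other 3, and no member passed the study threshold in any of the 4 comparisons with all arrays in the fit. Without SDPP replicate 3, however, 5 members were higher with SDPP (Agpat2, Angptl4, Apoa1, Apoc3 and Fabp2, against 0.441% of all genes), with array weights 2 were (Apoc3 and Fabp2, against 0.244%), and with the source arrays alone Apoc3 was (0.106%), none at an adjusted p under 0.9. Without CAS replicate 1, 1 member, Lpin1, was higher with CAS, and the share of all genes in that fit is not given. With all arrays in the fit, the shares of all genes lower and higher were 0.0266% and 0.133% for CAS, 0.0106% and 0.0159% for SBM, 0% and 0.0159% for SDPP, and 0.0372% and 0.0319% for YMW. Lpin1 came closest, at 8.26 in CAS and 7.74 in the other 3 sources, a difference of 0.52 (SE 0.10) with an adjusted p of 0.0768. Its lowest CAS array, 8.05, was below the highest SBM array, 8.07, and above every SDPP and YMW array. Lpin1 differed by -0.35 with YMW and by -0.28 with SDPP from the other sources, each with an unadjusted limma p under 0.05 that did not hold after adjustment (adjusted p = 0.608 and 0.9996).

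A further 3 members had an unadjusted p under 0.05 in a comparison between sources. The share of all genes at that p is not given for these comparisons, so no excess over it can be read. Plin2 averaged 9.86 with YMW, and the difference from the other sources was 0.28 (adjusted p = 0.790). The lowest YMW array, 9.74, was above all other treated arrays but SDPP replicate 1, at 9.80. Gpam, the first enzyme of glycerolipid synthesis in mitochondria, differed by 0.27 with SBM and by -0.26 with YMW (adjusted p = 0.967 and 0.803). Angptl4 differed by -0.42 with CAS and by 0.42 with SDPP (adjusted p = 0.891 and 0.9996). Apoa1 and Apoc3 differed with SBM from the other sources by -0.75 and -0.53, and neither had an unadjusted p under 0.05. An F test of any difference among the 4 sources gave Lpin1 an adjusted p of 0.207, where 8 genes (0.0425%) passed 0.05.

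Within the treated arrays the members varied with Alpi, the brush border alkaline phosphatase taken here as the marker of enterocyte maturity. Alpi measured 11.40, 11.65 and 12.34 in CAS, 11.35, 11.69 and 12.13 in SBM, 12.48, 12.28 and 11.53 in SDPP, 12.21, 11.59 and 11.49 in YMW and 11.58, 12.76 and 12.83 in MC. SDPP replicates 1 and 2, CAS replicate 3, YMW replicate 1 and SBM replicate 3 were the highest treated arrays, so that each source had arrays at both ends. The slope of each gene on Alpi was fitted over the 12 treated arrays with the source in the model, which leaves the MC arrays out. It was positive at an adjusted p under 0.05 (limma) for 19 of 31 members and negative for none, against 4.6% and 3.94% of all genes. Leaving out 1 array at a time gave 16 to 20 members, and with the mean of the other enterocyte markers in place of Alpi 18 members had a positive slope, all of them among the 19. The 1 lost was Lpin1, at an adjusted p of 0.0577.

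The steepest slopes belonged to secreted and lipid binding proteins. Apoa1 changed by 2.48 log2 units (SE 0.14) for each log2 unit of Alpi, Fabp2 by 1.72, Fabp1 by 1.56 and Apoa4 by 1.34. Mttp, with a slope of 1.29 (SE 0.06), had the lowest adjusted p of the members, 1.01e-09. Enzymes of synthesis had shallower slopes, with 0.92 for Dgat2, 0.86 for Dgat1, 0.74 for Agpat2, 0.70 for Gpat3 and 0.61 for Mogat2. Apob had a slope of 0.76, Plin3 of 0.43, Lpin1 of 0.31 (adjusted p = 0.0203) and Plin2 of 0.25 (adjusted p = 0.0209). Among the 12 members that did not pass were the lipases Pnpla2, Lipe and Mgll, the coactivator Abhd5, Angptl4, Gpam, Lpin2 and Lpin3. Agpat3 had the most negative slope, -0.13 (adjusted p = 0.205).

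**Figure D3:**
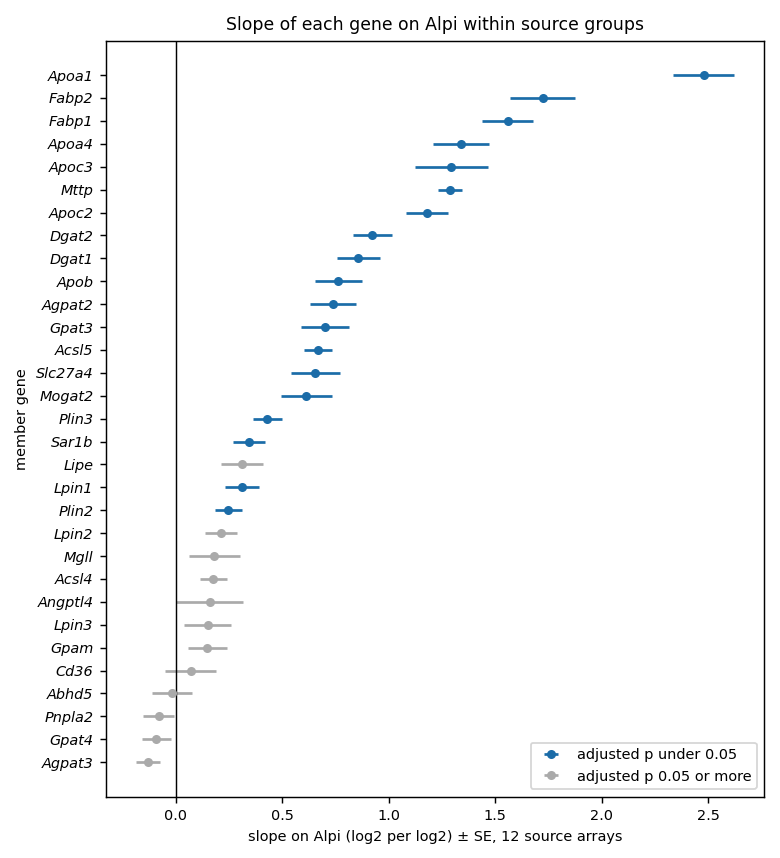
Slope of each of the 31 measured members on Alpi in log2 units per log2 unit, with its SE, over the 12 treated arrays with the source in the model. Apoa1 is the steepest at 2.48, Mttp has a narrow error of 0.06, and Agpat3 has the most negative slope at -0.13.

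Correlations with Alpi were computed over 3 sets of arrays. Over all 15 arrays the median Pearson r of the members was 0.893 and the median Spearman rho 0.796, against -0.025 and -0.039 for all genes. By permutation (100000 draws, two-sided, adjusted over 18819 relations) 22 members passed with a positive r and 19 with a positive rho, against 10.4% and 6.21% of all genes. The 2 arrays farthest from the median of Alpi were MC replicates 2 and 3, and without them the members' medians were 0.808 for r and 0.692 for rho, with 17 and 7 members passing (3.25% and 1.5% of all genes). Over the 12 treated arrays the medians were 0.826 and 0.741, with 17 and 5 members (2.9% and 1.36%). Mttp followed Alpi closely, with an r of 0.986 over 15 arrays, 0.982 over 13 and 0.983 over 12, and a rho of 0.968, 0.951 and 0.951. Lpin1 had an r of 0.05 over 15 arrays and 0.23 over 12. These correlations leave the source out of the model, whereas the slope of 0.31 for Lpin1 was fitted within sources. The arrays of a correlation share their normalization, and a monolayer's share of mature enterocytes was not measured.

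**Figure D4:**
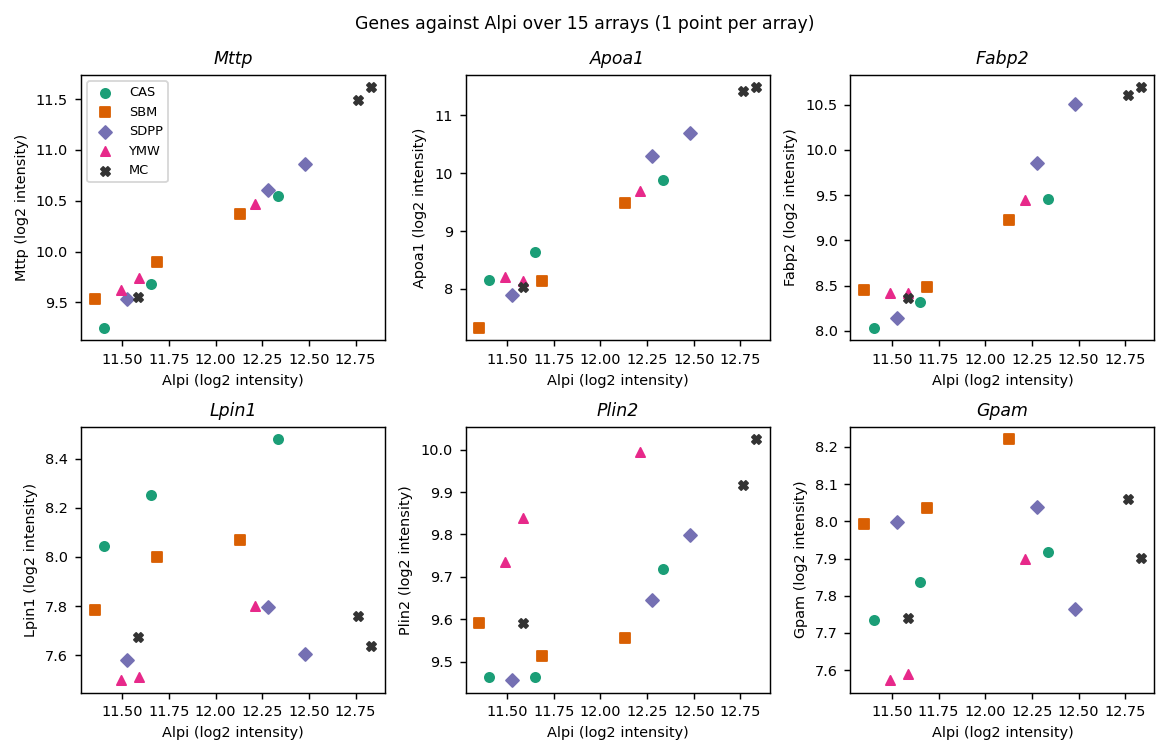
Log2 intensity of Mttp, Apoa1, Fabp2, Lpin1, Plin2 and Gpam against that of Alpi in the 15 arrays, marked by group. Mttp lies close to a line (r of 0.986), whereas Lpin1, without the source taken into account, has an r of 0.05 and its CAS arrays average 8.26.

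The promoters of these genes are shown for 3 of them: for Fabp1 and Apoc2, the 2 members found to hold a direct repeat of a kind that nuclear receptors can bind, and for Lpin1, the member that was higher with CAS. The sequences are the 250 bases before the annotated start in RefSeq, build GRCm38.p6, 5′ to 3′ on the strand of the gene, at chr6:71199629-71199878 (plus strand) for Fabp1, chr7:19677942-19678191 (minus strand) for Apoc2 and chr12:16610967-16611216 (minus strand) for Lpin1. Capitals mark the repeat, AGGNCA followed after 1 base by AGGNCA again, on either strand.
Fabp1: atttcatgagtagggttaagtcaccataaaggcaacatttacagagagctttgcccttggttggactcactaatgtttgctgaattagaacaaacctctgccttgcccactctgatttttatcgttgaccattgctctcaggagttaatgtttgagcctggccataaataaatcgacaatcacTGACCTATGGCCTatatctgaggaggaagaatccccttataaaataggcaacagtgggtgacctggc
Apoc2: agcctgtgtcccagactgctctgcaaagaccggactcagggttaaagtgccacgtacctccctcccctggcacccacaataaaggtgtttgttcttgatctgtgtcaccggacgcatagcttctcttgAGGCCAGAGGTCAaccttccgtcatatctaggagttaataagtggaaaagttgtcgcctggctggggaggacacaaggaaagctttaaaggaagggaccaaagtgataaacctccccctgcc
Lpin1: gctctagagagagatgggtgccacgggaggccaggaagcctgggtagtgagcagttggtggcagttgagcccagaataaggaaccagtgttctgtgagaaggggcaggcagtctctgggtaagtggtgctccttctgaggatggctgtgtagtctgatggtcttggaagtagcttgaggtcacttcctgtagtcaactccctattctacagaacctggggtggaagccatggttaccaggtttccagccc
The first base of the repeat lay 67 bases before the start in Fabp1 and 122 bases before it in Apoc2. Promoters were matched for 25 of the 31 measured members, and 2 of the 25 held the repeat, as did 0.4% of the promoters of 27025 genes. Of other motifs searched on both strands, CAAAGTCCA and TGACGTCA were in none of the 25 (0.451% and 1.77% of all promoters), AGATAA was in 1, Gpam (11.4%), and CACGTG was in 3, Lipe, Lpin2 and Mgll (6.86%). A match is a run of letters and not a measured binding site. Dgat2 and Mogat2 are neighbours in the genome, as are Apoa1, Apoc3 and Apoa4.

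With Alpi as a covariate over all 15 arrays, 0 or 1 member was called in each direction against MC, and these counts rested on MC replicate 1. Without it 9 members were lower with CAS (2.18% of all genes), 9 with SBM (2.21%), 5 with SDPP (1.65%) and 6 with YMW (2.33%), Apoa4, Apoc2, Apoc3 and Mogat2 with every source. With all 15 arrays and at equal Alpi, CAS had 1 member lower, Angptl4 at -0.75 (adjusted p = 0.0951), and 1 higher, Lpin1 at 0.69 (adjusted p = 0.00416), with 0.478% and 0.723% of all genes called in these directions and 1.15% having an adjusted p under 0.05. SBM and SDPP had none in either direction, where 0.26% and 0.308% of all genes were lower and 0.383% and 0.622% higher. YMW had none lower (0.446% of all genes) and 1 higher, Fabp1 at 0.62 (adjusted p = 0.0851, 0.627% of all genes). The medians of the members were -0.21, -0.17, -0.13 and -0.14 with CAS, SBM, SDPP and YMW. Mttp was then within 0.21 of MC with every source, while Apob kept values of -0.45, -0.48, -0.43 and -0.47 (adjusted p of 0.102, 0.253, 0.122 and 0.131). Alpi was measured in the same treated cells, so whether the sources act on it or beside it was not tested.

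Between sources at equal Alpi, Lpin1 exceeded the other sources by 0.53 with CAS (adjusted p = 0.00275, under 0.05 for 0.654% of all genes), and this held in each of 17 alternative settings, with differences of 0.46 to 0.61 and adjusted p-values up to 0.0481. Against MC at equal Alpi, Lpin1 with CAS kept an adjusted p under 0.05 in all but 1 of the settings, 0.0664 without CAS replicate 3. Plin2 was 0.31 higher with YMW (SE 0.05, adjusted p = 0.0402, under 0.05 for 0.0903% of all genes) and the difference stayed between 0.29 and 0.34, but the adjusted p ran up to 0.210 without YMW replicate 1. Gpam with SBM differed by 0.29 with an adjusted p of 0.278.

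The members are part of a wider pathway. Of 74 further measured genes of it, 9 were lower and 1 higher with CAS, 9 and 0 with SBM, 9 and 1 with YMW and 2 and 0 with SDPP, where 2.04%, 2.14%, 2.13% and 0.499% of all genes were lower and 1.82%, 1.37%, 1.74% and 1.13% higher with CAS, SBM, YMW and SDPP. Without MC replicate 1, 20, 22, 18 and 15 of the 74 were lower in the same order of sources, where 4.48%, 4.9%, 4.6% and 3.44% of all genes were. Most of the lower ones were in assembly, 5 of 26 with CAS, 6 with SBM, 6 with YMW and 1 with SDPP, or among the 8 lipases and their inhibitors, where CAS had 3, SBM 2, YMW 2 and SDPP 1. Ces2a, a carboxylesterase of enterocytes, was called lower with all 4 sources, at -1.59, -1.65, -1.38 and -1.58 with CAS, SBM, SDPP and YMW. Pla2g12b, a phospholipase-like protein of lipoprotein assembly, was called with SBM (-1.35) and YMW (-1.28), and Cideb, which helps to lipidate very low density lipoprotein in liver, with CAS (-1.14), SBM (-1.27) and YMW (-1.04). Lipa, the lysosomal acid lipase, was called with the same 3 sources, at -1.08, -1.17 and -1.17, and so was Apobec1, the enzyme that edits Apob mRNA, at -0.79, -0.90 and -0.96. The droplet protein Cidec was called with CAS (-1.11) and SBM (-1.08). For each of these 6 genes MC replicates 2 and 3 were above all treated arrays, and with MC replicate 1 as the only control no pathway gene was lower with any source. No gene of uptake and activation, or of the further acyltransferases, was called.

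Of the pathway genes, 1 more is given that was chosen after its values were seen. Hilpda, a small droplet protein that inhibits Pnpla2, measured 7.04, 7.04 and 7.21 in CAS, 6.87, 6.97 and 7.07 in SBM, 7.04, 7.16 and 6.84 in SDPP, 7.63, 7.59 and 7.61 in YMW and 6.80, 6.78 and 6.41 in MC. The YMW arrays were above all MC arrays, as in 7.42% of all genes. They were also above all other treated arrays, and the MC arrays were below all treated arrays. Shares of all genes with these 2 wider patterns are not given. Hilpda averaged 7.61 ± 0.02 in YMW and 6.66 ± 0.22 in MC (SD, n = 3 each), 1.93-fold higher with an adjusted p of 0.0147 in limma. It was itself the 1 gene of 18820 (0.00531%) with an adjusted p under 0.05 for YMW against MC, so that share is no background for it. From the other sources it differed by 0.58 with YMW (adjusted p = 0.188). Over 16 alternatives the difference from MC stayed between 0.81 and 1.02 and its adjusted p between 5.64e-05 and 0.173, the highest with MC replicate 1 as the only control.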

How the data were processed

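Total RNA of 15 monolayer samples was hybridized to 1 array each. The deposited intensity values come from RMA run by the authors, which the submitters' processing notes name without a version and which corrects background, quantile normalizes the arrays and summarises each probe set, so that values are relative between arrays. They were linear, from 3.02 to 10739, whereas log2 values had been planned for, and log2 was taken. Of 35556 probe sets, 21218 carried 1 symbol in the platform annotation, 1881 several and 12457 none, and each of 18820 genes was represented by its brightest such probe set. Background was set at a log2 value of 3.91, which 95% of 1155 olfactory and vomeronasal receptor genes did not exceed and 12879 genes did. The precision is limited by the number of arrays.

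Groups were compared by limma 3.58.1 (R 4.3.3), with all 5 group means estimated together from the 15 arrays and variances moderated along intensity in place of the intensity-based statistic of the methods, and p-values were adjusted by Benjamini-Hochberg over all genes. They measure the spread between samples whose separate origin in mice the labels do not state. The slope on Alpi and the fits with Alpi as covariate left 18819 genes. Values per array are given for members called in at least 2 comparisons with MC or with an adjusted p under 0.05, and for Dgat1, Dgat2, Mogat2, Apob, Mttp, Plin2 and Angptl4 in any case, and other pathway genes for at most the 3 largest per role among those called at least 2 times or between sources. The members and lists were chosen with earlier results of these data known. Correlations, motif counts and figures used Python 3.11.15 with numpy 2.4.6, pandas 2.3.3, scipy 1.17.1 and matplotlib 3.10.9. The fit was tested on simulated data that gave every group the spread of the treated arrays, so the wider spread of the MC arrays was not simulated. Promoters came from RefSeq, build GRCm38.p6, by symbol. Alternatives covered the variance prior, replicate block, arrays used, background filter, array centring and weights, probe sets, thresholds, controls, marker and each left-out array. Alternatives for Hilpda and the other pathway genes were chosen after seeing the data. Assays other than the arrays were not analysed here.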

Additional observations from a re-analysis of the deposited data

How the results depend on the processing

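The counts and medians against MC depended on the MC arrays, while members with a positive slope on Alpi numbered 16 to 20 whichever of the 12 treated arrays was left out. Leaving out 1 array at a time, members lower than MC numbered 3 to 19 with CAS, 1 to 18 with SBM, 0 to 13 with SDPP and 1 to 19 with YMW, the highest in each case without MC replicate 1, and medians in the same order were -1.07 to -0.37, -1.04 to -0.40, -0.58 to -0.15 and -0.74 to -0.35. Members higher numbered 0 to 1 for CAS against MC, 0 to 1 for CAS against the other sources and 0 to 5 for SDPP against the other sources, 5 without SDPP replicate 3. With Alpi as covariate they were 1 to 9 lower with CAS, 0 to 9 with SBM, 0 to 5 with SDPP and 0 to 6 with YMW, again highest without MC replicate 1, and 0 to 1 higher with YMW. Other pathway genes lower than MC numbered 0 to 20 with CAS, 1 to 22 with SBM, 0 to 15 with SDPP and 2 to 18 with YMW, and higher 0 to 1 with CAS and SBM. The highest counts of lower genes were without MC replicate 1, where 4.48%, 4.9%, 3.44% and 4.6% of all genes were lower in that order.

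With MC replicate 1 as the only control, 0 members were lower with any source, 1 was higher with CAS and 1 with SDPP against MC, 1 with SDPP against the other sources, and 0 other pathway genes were lower with any source and 0 with CAS and 1 with SDPP higher. The share of all genes for the count between sources in that fit is not given. Medians turned to 0.0205, 0.0696, 0.19 and 0.0442 with CAS, SBM, SDPP and YMW. Among the values called with all 3 MC arrays or with this control, those that turned were, with CAS, Dgat2 (0.35), Mogat2 (0.47), Agpat2 (0.15), Apoa4 (0.43), Apoc2 (0.29) and Plin3 (0.12), with SBM, Dgat1 (0.20), Dgat2 (0.26), Mogat2 (0.41), Gpat3 (0.0248), Apoa4 (0.24), Apoc2 (0.11), Slc27a4 (0.25) and Plin3 (0.14), with SDPP, Mogat2 (0.97) and Apob (0.0802), and with YMW, Gpat3 (0.12), Apoc2 (0.32), Slc27a4 (0.15) and Plin3 (0.16).

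Members lower with SDPP numbered 0 with 1 prior variance, with genes above background only and with all probe sets tested. Fitted on the arrays of the groups compared alone, 3, 5, 0 and 2 were lower with CAS, SBM, SDPP and YMW. The shares of all genes lower in those fits are not given, so these counts have no base rate. In the fit of the source arrays alone, 1 was higher with SDPP against the other sources (0.106% of all genes). Array weights gave 19, 12 and 17 lower with CAS, SDPP and YMW (3.97%, 2.58% and 3.99% of all genes), medians of -0.95, -0.92 and -0.69 with CAS, SBM and YMW, and 2 higher with SDPP against the other sources. With no fold threshold 16, 3 and 11 were lower with CAS, SDPP and YMW and 1 higher with CAS and with SBM. By that rule 16.5%, 18.2%, 12% and 19% of all genes passed in either direction with CAS, SBM, SDPP and YMW. Against the other sources 1 was higher with each source and 1, 1 and 2 lower with CAS, SDPP and YMW, and the shares of all genes are not given there. At an adjusted p under 0.05, 0 were lower with any source and 1 higher with CAS. The mean of other markers in place of Alpi gave 1 member higher with SBM, and the share of all genes in that fit is not given. Pairing by replicate number was not seen in deviations from the group means over all genes, a check that a smaller shared effect could escape. Over 30 same-numbered pairs the median correlation of deviations was -0.077, 9 exceeded 0.1, and 2 of 15 arrays correlated best with their own number. With the replicate block, 0 members were lower with SDPP, and no other count of members moved by over 1.5 times. Of 31 named values past the threshold, 769 alternative values held 579 times, lost the call 171 times and turned 19 times. The cause of these changes was not tested.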
